A study of Mus musculus with 6 samples.

Results

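Genes for 10 subunits of the Polycomb repressive complexes were followed by their mRNA levels in mouse embryonic stem cells (ESCs). They are the 10 entries of the deposited RPKM table (read numbers normalised for transcript length and for sequencing yield) that bear the symbols Ezh2, Ezh1, Eed, Suz12, Jarid2, Mtf2, Ring1, Rnf2, Pcgf6 and Cbx7, out of 13743 entries, and each symbol stands on 1 entry. The rule reads gene symbols alone. All libraries came from Dgcr8-/- ESCs of strain C57/129, so the control cells carry the deletion too. Dgcr8 is the partner of Drosha in the first step of microRNA maturation, and cells without it make no canonical microRNAs. There were 3 groups of 2 libraries, taken 48 h after transfection: CTR, miR-294 (a microRNA mimic at 50 nM) and siMbd2 (an siRNA against Mbd2, which encodes a methyl-CpG binding protein, at 50 nM). What the CTR cells received is not stated beyond the label CTR, and the table calls them mock. Whether the 2 libraries of a group were separate cultures, is stated in no label, so p-values measure only the spread between these libraries, which may be technical.

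Polycomb proteins keep developmental genes silent in ESCs. Polycomb repressive complex 2 (PRC2) methylates lysine 27 of histone H3. Its core holds EED, SUZ12 and 1 of the methyltransferases EZH2 and EZH1, and accessory subunits such as JARID2 and MTF2 guide it to CpG-rich promoters. PRC1 ubiquitinates histone H2A through RNF2 (also called RING1B) or RING1, each paired with a PCGF protein. Canonical PRC1 carries a CBX protein, which reads the PRC2 mark, and a PHC protein, whereas variant PRC1 carries RYBP or YAF2 instead. PCGF6 defines a variant complex that silences germline genes in ESCs, and CBX7 is the CBX protein best known from undifferentiated ESCs.

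The transfected microRNA acts through its seed, bases 2 to 8. It is given below in capitals for 5 mature 3p arms of the miR-290 and miR-302 clusters found with it in the RefSeq table (GRCm38.p6). No entry for miR-302a-3p was found there, so the 5 may not be all. The labels name miR-294 without an arm, and the 3p arm is shown because it carries the seed by which this family is defined.
mmu-miR-294-3p: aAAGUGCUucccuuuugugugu
mmu-miR-291a-3p: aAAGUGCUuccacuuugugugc
mmu-miR-295-3p: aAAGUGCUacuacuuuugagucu
mmu-miR-302b-3p: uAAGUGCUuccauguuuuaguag
mmu-miR-302d-3p: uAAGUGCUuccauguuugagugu
The complement of the seed, AGCACTT, its extension AGCACTTA and the shorter match GCACTTA were sought on the sense strand of 3' UTRs, taking for each gene its longest in GENCODE vM21 (GRCm38, of which mm10 is another name). Of the 10 subunit genes, 1 held a match. It lies at position 922 of the 1824 bases of the Ezh1 3' UTR, at chr11:101192011-101192017 on the minus strand, shown with the match in capitals.
Ezh1 site: tagagaacaaAGCACTTtaactctctt
For comparison, 20.9% of 10802 tested genes with a matched 3' UTR held at least 1 of the letters sought. The 3' UTRs of the subunit genes are 402 to 2509 bases long, and a longer 3' UTR has more places for a match.

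Mbd2 mRNA, the siRNA target, stood at 26.8 and 27.9 RPKM in CTR. It was lower in both treatments, with 11.3 and 12.3 RPKM after miR-294 and 7.33 and 6.34 after siMbd2. Dgcr8 mRNA was 6.66 to 8.44 RPKM in all 6 libraries, and a gene-level value cannot show whether the transcript is intact. All 12 ESC markers had a value, and they summed to 5988 to 7599 RPKM per library, led by Dppa5a and Pou5f1. With miR-294, 4 of these 12 rose (Pou5f1 among them) and 5 fell (Nanog and Dppa5a among them), beside 27.7% and 36.8% of all genes. With siMbd2, 6 rose and 2 fell, beside 19.5% and 14.9% of all genes. The rise of Pou5f1 with miR-294 was 0.52 on the log2 scale, and 0.14 with quantile normalization. The counts with miR-294 also moved with the scaling. With quantile normalization Tdgf1 was no longer called (0.01), and Esrrb (-0.35) and Klf4 (-0.19) were called lower. With median-of-ratios scaling Fgf4 was called higher (0.18). Markers of other cell types had far lower sums. Of 10 feeder fibroblast markers 4 had a value. They summed to 2.61 to 3.23 RPKM outside miR-294 and to 5.97 and 6.22 within it. Mean RPKM went from 1.515 in CTR to 3.485 in miR-294 for Thy1, from 0.735 to 1.69 for Acta2 and from 0.795 to 0.68 for Fbn1. Col1a1 was at no more than 0.29, and of the 4 only Thy1 was tested. Primitive endoderm markers summed to 7.83 to 9.08 RPKM outside miR-294 and to 13.9 and 14.9 within it, but without Lama1 to 2.85 to 3.96 and to 3.95 and 4.24. Of that list only Gata4 and Lama1 were tested, and Gata4 fell with miR-294, which lowers the miR-294 sums without Lama1. The other listed markers were not tested, but each was higher in both miR-294 libraries than in both CTR libraries. Mean RPKM went from 0.15 in CTR to 1.215 in miR-294 for Sox7, from 0.165 to 0.735 for Gata6 and from 0.355 to 0.785 for Dab2. Sox17 was at no more than 0.14 RPKM and Foxa2 at no more than 0.17. Trophoblast markers summed to 32.9 and 35.2 RPKM in CTR, to 20.3 and 21.2 after miR-294 and to 26.8 and 27.5 after siMbd2. That sum is mostly Tfap2c, and without it the sums were 6.74 and 6.82 in CTR, 11.7 and 12.1 after miR-294 and 8.71 and 9.81 after siMbd2, with Hand1 and Ascl2 called higher with miR-294. Neural markers summed to 23.8 and 25 RPKM in CTR, to 13.2 and 13.3 after miR-294 and to 22.0 RPKM in both siMbd2 libraries. Sox1, Pax6 and Nes fell with miR-294. The Nes call ended under quantile normalization (log2 change -0.08, adjusted p = 0.536) and also under median-of-ratios scaling (adjusted p = 0.0649). With siMbd2, Nes rose (log2 change 0.68) while Sox1 (-0.76) and Map2 (-0.70) fell, so that sum holds opposite moves. The part of these genes in the results below was not tested. In bulk RNA, fewer cells of a type and less RNA per cell cannot be told apart. The CTR pair differed most between replicates, with a median absolute difference of 0.136 on the log2 scale against 0.0626 in miR-294 and 0.0602 in siMbd2. The depth behind these values is unknown, since the table gives RPKM alone.

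With miR-294, the PRC2 genes Eed, Jarid2 and Mtf2 and the PRC1 genes Pcgf6 and Cbx7 were higher than in CTR, and Ezh1 and Ring1, each the less abundant of a pair of catalytic paralogs, were lower. In all, 5 of 10 subunits rose, 2 fell and 3 did not pass the test. The test was limma on log2(RPKM + 1) over the 11428 genes whose mean reached 1 RPKM, with a Benjamini-Hochberg adjusted p under 0.05 as the threshold. Of all genes tested 27.7% rose and 36.8% fell, 64.5% in all, so a count of 7 called among 10 is near the background. The libraries of the groups did not overlap for 9 subunits, beside 81.0% of all genes. The excess of lower calls over all genes turned with the scaling, from 3162 higher and 4204 lower to 3748 and 3704 with median-of-ratios scaling and to 3648 and 3469 with quantile normalization. With the deposited scaling, the median change of the subunits was 0.27 on the log2 scale, against -0.08 for all genes tested. With median-of-ratios scaling 6 subunits rose and 2 fell, and the median of all genes was -0.0070. With quantile normalization 4 subunits rose and 3 fell, and the median of all genes was 0.019.

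Among the core PRC2 genes, Eed, the subunit that binds trimethylated lysine 27, read 45.9 and 54.1 RPKM in CTR and 97.5 and 94.6 in miR-294. It rose 1.92-fold (log2 change 0.93, SE 0.080, adjusted p = 2.42e-05), and the groups lie far apart. Suz12, which encodes the scaffold of the complex, read 66.8 and 79.0 RPKM in CTR and 80.8 and 84.7 in miR-294 (log2 change 0.19, 95% interval 0.00315 to 0.37, adjusted p = 0.0697). The groups do not overlap, but the CTR libraries differed from each other by more than the gap to miR-294. Without CTR replicate 2, the higher of the pair, Suz12 passed the test (log2 change 0.31, adjusted p = 9.34e-04). Under median-of-ratios scaling it was called as well (0.26, adjusted p = 0.0290).

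The methyltransferase genes parted. Ezh2, the main enzyme of dividing cells, read 71.7 and 76.9 RPKM in CTR and 71.0 and 70.9 in miR-294 (log2 change -0.07, 95% interval -0.20 to 0.07, adjusted p = 0.352), a difference that became a call with quantile normalization (-0.23, adjusted p = 0.0131). Ezh1, the enzyme that prevails in resting cells, read 16.5 and 15.0 RPKM in CTR and 10.25 and 10.03 in miR-294. It fell by 0.58 on the log2 scale (SE 0.077, adjusted p = 2.22e-04), and both miR-294 libraries lie below both CTR libraries. Ezh1 is the gene with the seed match shown above. The match is a description, and whether it acts here was not tested.

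Of the accessory PRC2 genes, Jarid2, a catalytically inactive relative of histone demethylases, had the highest level of the 10 subunits in every library. It read 108 and 113 RPKM in CTR and 199 and 187 in miR-294, a rise of 0.79 on the log2 scale (SE 0.062, adjusted p = 1.53e-05). Mtf2, a Polycomb-like protein that binds CpG-rich DNA, read 62.3 and 70.9 RPKM in CTR and 84.9 and 86.7 in miR-294 (log2 change 0.36, SE 0.069, adjusted p = 0.00173). The Mtf2 call ended under quantile normalization (0.19, adjusted p = 0.0767).

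Among the PRC1 genes, Pcgf6 read 24.3 and 24.9 RPKM in CTR and 40.1 and 41.3 in miR-294, and rose by 0.70 (SE 0.060, adjusted p = 2.3e-05). The 2 CTR values lie within 1 RPKM of each other, so the gap to miR-294 is many times the replicate difference. Cbx7 read 93.3 and 83.4 RPKM in CTR and 128 and 120 in miR-294, and rose by 0.48 (SE 0.067, adjusted p = 3.09e-04). Ring1 read 9.88 and 8.49 RPKM in CTR and 6.02 and 6.07 in miR-294, and fell by 0.53 on the log2 scale (SE 0.094, adjusted p = 0.00125). For Rnf2, the paralog of Ring1 and the main H2A ubiquitin ligase of ESCs, the groups overlap, with 55.4 and 50.5 RPKM in CTR and 56.6 and 53.0 in miR-294 (log2 change 0.05, 95% interval -0.10 to 0.20, adjusted p = 0.536).

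**Figure D1:**
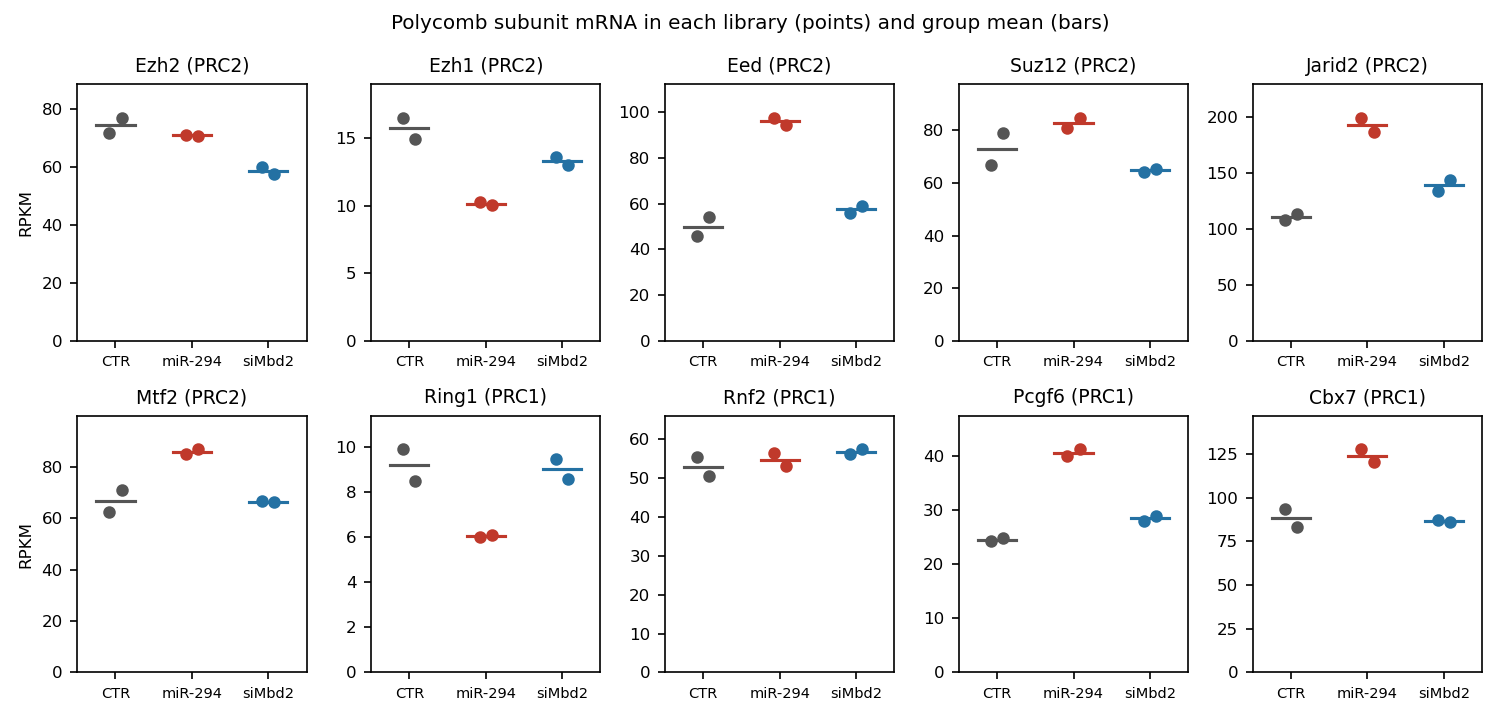
RPKM of each of the 10 subunit genes in the 6 libraries, with 1 point per library, a bar for the mean of each group, and a linear axis from 0 in each panel. The miR-294 points of Eed (97.5 and 94.6), Jarid2 (199 and 187) and Pcgf6 (40.1 and 41.3) stand above all other libraries of those genes, and those of Ezh1 and Ring1 below them.

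With siMbd2, 3 of the 10 subunits were called. Jarid2 and Pcgf6 rose, Ezh2 fell, and the other 7 subunits did not pass the test. Of all genes tested 19.5% rose and 14.9% fell, 34.4% in all, so 3 of 10 is again near the background. The groups did not overlap for 7 subunits, beside 67.6% of all genes. The median change was -0.01 on the log2 scale, against 0.02 for all genes tested. This comparison uses the same 2 CTR libraries as the one above.

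Ezh2 read 60.0 and 57.5 RPKM with siMbd2, below the 71.7 and 76.9 of CTR and also below both miR-294 libraries. It fell by 0.33 on the log2 scale against CTR (SE 0.059, adjusted p = 0.00404). Jarid2 read 134 and 144 RPKM, between the CTR and the miR-294 libraries, and rose by 0.32 (SE 0.062, adjusted p = 0.00587). Pcgf6 read 27.97 and 28.98 RPKM, also between those groups, with a log2 change of 0.20 (SE 0.060, adjusted p = 0.0299). The call of Pcgf6 was near the threshold and ended in 8 of the alternatives, among them median-of-ratios scaling (adjusted p = 0.0517), quantile normalization (0.0962) and the omission of either siMbd2 library (0.115 and 0.216). Without siMbd2 replicate 2, Ezh2 (log2 change -0.30, adjusted p = 0.0582) and Jarid2 (0.27, adjusted p = 0.07745) were not called either.

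Ezh1 read 13.6 and 13.0 RPKM with siMbd2, below both CTR libraries and above both miR-294 libraries (log2 change -0.23, 95% interval -0.40 to -0.05, adjusted p = 0.0507). It passed with both other scalings, with the larger value under quantile normalization (-0.26, adjusted p = 0.0229). Eed read 55.9 and 59.2 RPKM, above the CTR pair but not called (log2 change 0.20, adjusted p = 0.0799), although it was called without CTR replicate 2 (0.32, adjusted p = 0.00361). Suz12 read 64.0 and 65.4 RPKM (log2 change -0.16, adjusted p = 0.145), and it was called lower without CTR replicate 1 (-0.28, adjusted p = 0.00308). The calls of Eed and Suz12 against CTR thus turned on which CTR library was used.

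The remaining subunits stayed near CTR. Mtf2 read 66.5 and 66.3 RPKM with siMbd2 (log2 change -0.0018, 95% interval -0.16 to 0.16), and Cbx7 read 87.0 and 85.9 RPKM (-0.03, interval -0.18 to 0.13). Ring1 read 9.46 and 8.57 RPKM (-0.02, interval -0.24 to 0.19). For these 3 genes the siMbd2 libraries lie within the range of the CTR pair. Rnf2 read 56.3 and 57.4 RPKM, just above both CTR libraries (0.10, interval -0.05 to 0.25, adjusted p = 0.262), and it was called without CTR replicate 1 (0.17, adjusted p = 0.0357).

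**Figure D2:**
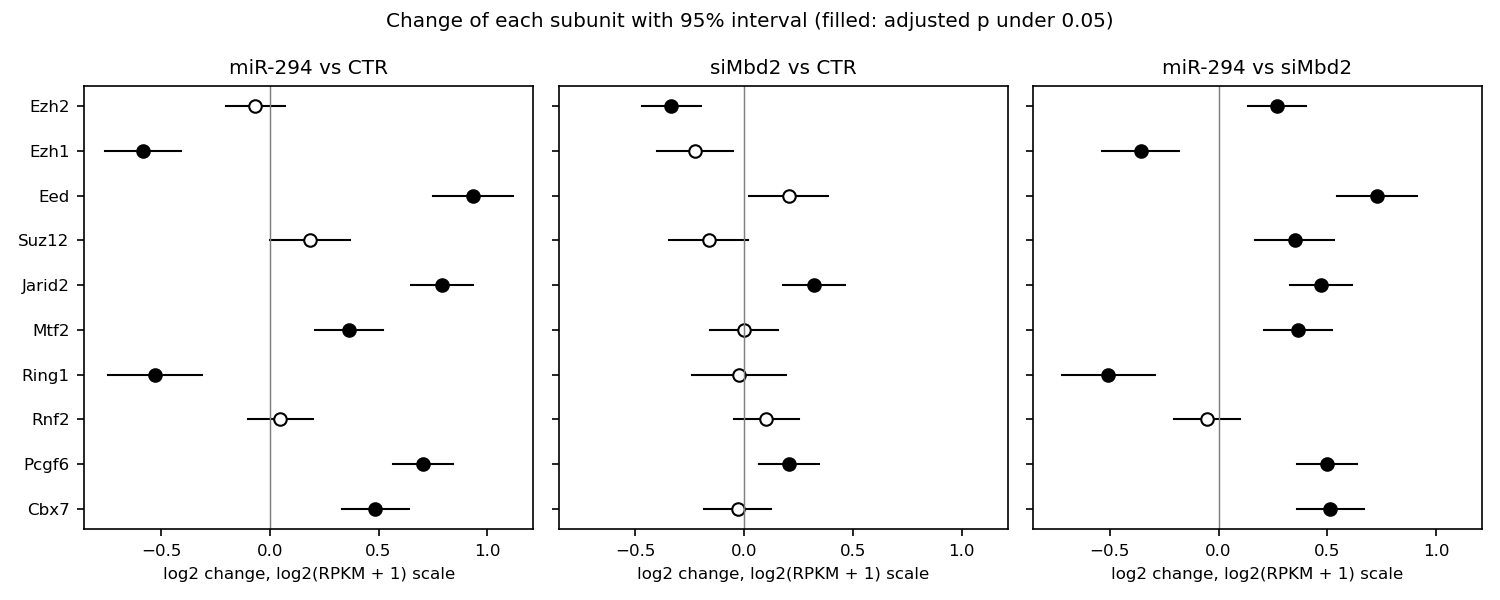
Change of each subunit in the 3 comparisons on the log2(RPKM + 1) scale, with 95% intervals as lines and filled points where the adjusted p was under 0.05. Of the 10 subunits, 7 are filled in miR-294 vs CTR, 3 in siMbd2 vs CTR and 9 in miR-294 vs siMbd2, with Rnf2 open in all 3.

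The direct comparison of the treatments tests where they differ. Most subunits were higher with miR-294 than with siMbd2 (7 of 10: Eed, Cbx7, Pcgf6, Jarid2, Mtf2, Suz12 and Ezh2), 2 were lower (Ring1 and Ezh1), and Rnf2 did not pass (log2 change -0.05, 95% interval -0.20 to 0.10, adjusted p = 0.512). Of all genes tested 21.9% were higher and 35.5% lower, 57.4% in all, and the libraries did not overlap for 9 subunits, beside 84.1% of all genes. The split over all genes moved with the scaling: 2500 genes higher and 4061 lower with the deposited scaling became 3425 and 3344 with median-of-ratios scaling and 3291 and 3100 with quantile normalization, which shifted the median of all genes from -0.08 to 0.03. Among the 7 that were higher, Eed had the largest difference (0.73, SE 0.080, adjusted p = 1.28e-04), followed by Cbx7 (0.51, adjusted p = 3.19e-04) and Pcgf6 (0.50, adjusted p = 1.99e-04). Jarid2 was higher by 0.47 (adjusted p = 3.29e-04), so its level with siMbd2 was above CTR and below miR-294. Suz12 (0.35, adjusted p = 0.00567) and Ezh2 (0.27, adjusted p = 0.00475) differed between the treatments although neither was called in miR-294 vs CTR; the Ezh2 difference was not called without siMbd2 replicate 2 (0.24, adjusted p = 0.0575). Ring1 was lower by -0.51 (adjusted p = 0.0020) and Ezh1 by -0.36 (adjusted p = 0.00406), the latter no longer called with quantile normalization (-0.18, adjusted p = 0.0560).

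RPKM is scaled to length, so levels can be set beside each other between genes. In CTR the order by mean RPKM was Jarid2 (111), Cbx7 (88.3), Ezh2 (74.3), Suz12 (72.9), Mtf2 (66.6), Rnf2 (53.0), Eed (50.0), Pcgf6 (24.6), Ezh1 (15.7) and Ring1 (9.19). The libraries of Ezh2 and Suz12, of Suz12 and Mtf2, and of Rnf2 and Eed overlap, so those neighbours do not differ beyond their spread, while each other neighbour pair is separate. In miR-294 Eed rose to rank 3 at 96.1 ± 2.10 RPKM (SD, n = 2), above Mtf2 (85.8 ± 1.27), Suz12 (82.7 ± 2.73) and Ezh2 (70.9 ± 0.078). The ratio of Eed to Ezh2 mRNA was 0.639 and 0.703 in CTR, against 1.37 and 1.33 after miR-294 and 0.932 and 1.03 after siMbd2, with no overlap between the 3 groups. The ratio of Eed to Suz12 was 0.687 and 0.685 in CTR, against 1.21 and 1.12 after miR-294 and 0.873 and 0.904 after siMbd2.

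Within each paralog family the share of the most abundant subunit was higher in both miR-294 libraries than in both CTR libraries. Ezh1 made up 18.7% and 16.3% of the summed EZH mRNA in CTR, against 12.6% and 12.4% after miR-294 and 18.5% and 18.4% after siMbd2. Ring1 took 15.1% and 14.4% of the RING mRNA in CTR, against 9.62% and 10.3% after miR-294 and 14.4% and 13.0% after siMbd2. Cbx7 took 68.1% and 67.5% of the mRNA of 4 CBX genes in CTR, against 81.5% and 81.3% after miR-294 and 65.5% and 63.5% after siMbd2. Pcgf6 took 26.8% and 27.6% of the mRNA of 6 PCGF genes in CTR, against 37.4% and 38.2% after miR-294 and 28.0% and 28.2% after siMbd2. These shares are given as a description and were not tested.

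**Figure D3:**
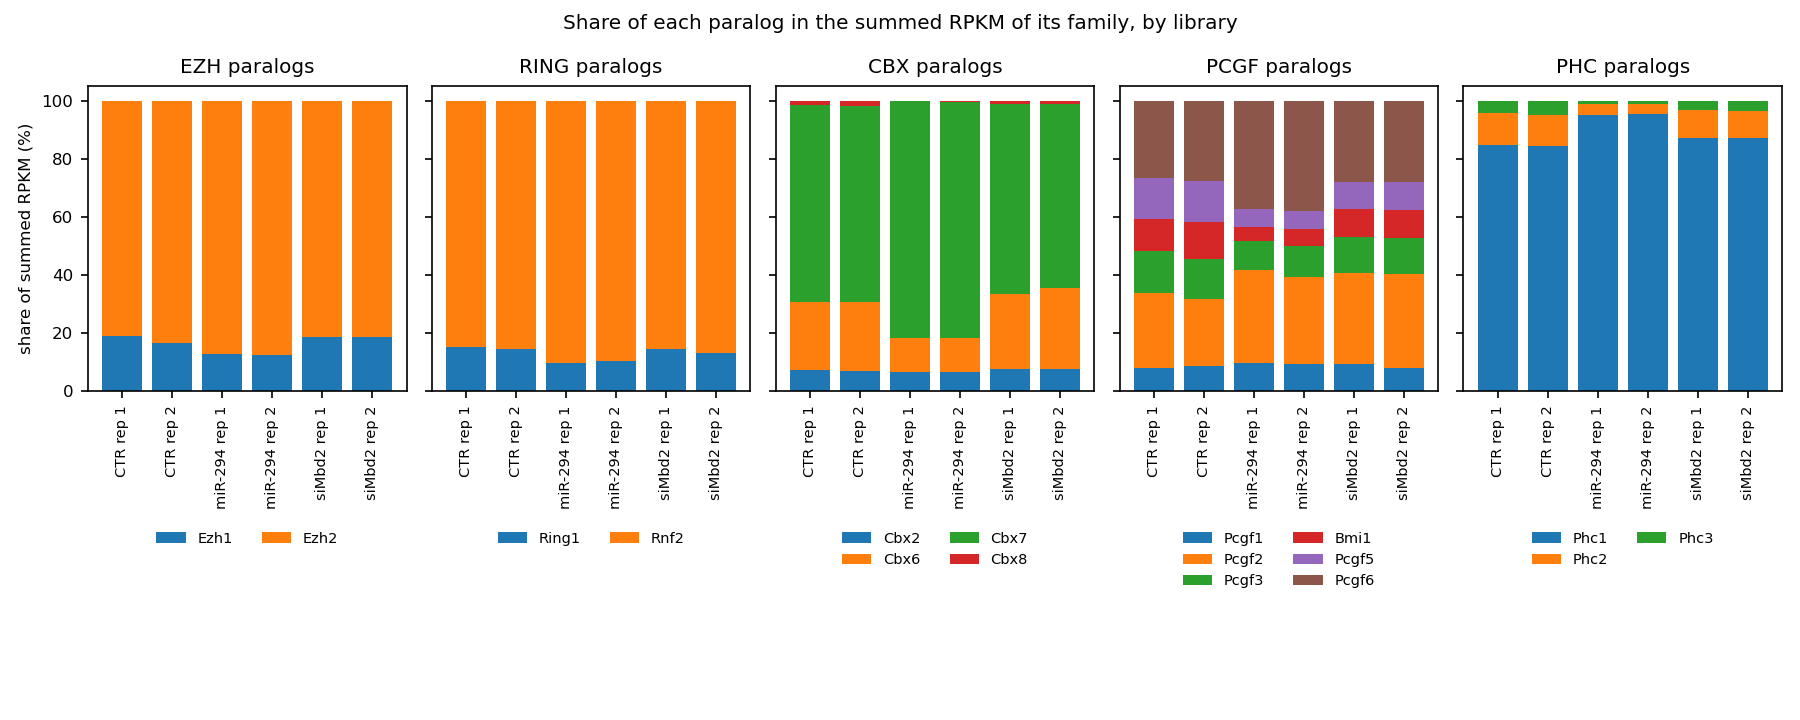
Share of each paralog in the summed RPKM of its family (percent, stacked to 100%) in each of the 6 libraries. In the miR-294 bars Cbx7 widens to 81.5% and 81.3%, Pcgf6 to 37.4% and 38.2%, and Phc1 to 95.1% and 95.3%, while Ezh1 and Ring1 narrow.

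The 10 subunits and other genes of the complexes stand on 5 lists with 51 genes in all, of which 49 were tested. With miR-294, 17 of these 49 rose, 19 fell and 13 did not pass, with a median of -0.02, beside 27.7% and 36.8% of all genes. With siMbd2, 11 rose, 4 fell and 34 did not pass, beside 19.5% and 14.9% of all genes. The counts of single lists below are to be read against the same shares.

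In PRC2, the histone-binding subunit gene Rbbp4 rose with miR-294 from 128 ± 9.49 to 152 ± 11.02 RPKM (log2 change 0.24, adjusted p = 0.0164). Under quantile normalization its change did not differ from 0 by the test (0.0050). Its relative Rbbp7 read 185 ± 0.93 and 182 ± 2.62 RPKM (adjusted p = 0.726), but was called lower with quantile normalization (-0.27, adjusted p = 0.00147). With siMbd2, Rbbp7 was called lower as well (-0.16, adjusted p = 0.0387). The most marked change of any gene on the 5 lists was that of E130012A19Rik, the older symbol of Epop, whose product joins PRC2 to elongin BC. It read 36.3 and 35.5 RPKM in CTR, 212 and 203 after miR-294, and 81.5 and 91.5 after siMbd2 (log2 changes 2.50 and 1.24, adjusted p = 4.07e-07 and 5.54e-05). Lcor, whose locus also encodes the PRC2 partner PALI1, fell with miR-294 from 8.32 ± 1.17 to 2.50 ± 0.24 RPKM, and its relative Lcorl from 8.12 ± 1.004 to 3.14 ± 0.29 RPKM. Gene-level values cannot tell their isoforms apart. Of the partners of JARID2-containing PRC2, Aebp2 fell with miR-294 by 0.54 on the log2 scale (adjusted p = 1.22e-04), the opposite direction to Jarid2.

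In PRC1, Pcgf2 (also called Mel18) rose in both comparisons, from 22.2 ± 1.73 RPKM to 33.5 ± 1.23 with miR-294 and to 32.4 ± 1.51 with siMbd2. Bmi1, its closest relative, fell with miR-294 from 10.6 ± 1.02 to 5.72 ± 0.64 RPKM, and Pcgf5 fell from 12.8 ± 0.19 to 6.62 ± 0.13 RPKM. Of the 8 tested genes on the canonical PRC1 list, 2 rose with miR-294 and 4 fell, near the 64.5% called over all genes, and with quantile normalization 3 rose and 4 fell. Those that rose were Cbx7 and the Polyhomeotic gene Phc1 (125 ± 11.3 to 244 ± 2.24 RPKM, log2 change 0.97, adjusted p = 9.35e-06). Those that fell were Phc2 (16.1 ± 1.69 to 9.20 ± 0.35), Phc3 (6.82 ± 0.20 to 3.05 ± 0.078), Cbx6 (30.9 ± 1.73 to 17.9 ± 0.70) and Cbx8 (2.11 ± 0.15 to 0.66 ± 0.23 RPKM). With siMbd2, 1 of the 8 was called, Phc1 (log2 change 0.23, adjusted p = 0.0284), and that call ended with quantile normalization.

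Among 19 variant PRC1 partners 7 rose and 7 fell with miR-294, beside 27.7% and 36.8% of all genes. Kdm2b, which encodes the CpG-binding demethylase that brings variant PRC1 to CpG islands, read 34.8 ± 2.001 RPKM in CTR and rose to 75.9 ± 5.03 with miR-294 (1.10 on the log2 scale, adjusted p = 6.72e-06), and to 43.0 ± 1.48 with siMbd2 (0.30, adjusted p = 0.0134). L3mbtl2, a subunit of the PCGF6 complex, rose from 35.8 ± 2.52 to 59.5 ± 1.20 RPKM with miR-294 and to 47.3 ± 0.93 with siMbd2. Of other subunits of that complex, Mga rose by 0.27 and Max by 0.17, the latter not called with quantile normalization (0.09). E2f6 fell by 0.34 on the log2 scale. Of Rybp and Yaf2, whose products variant PRC1 carries, Yaf2 fell by 0.88 on that scale, from 7.57 ± 0.80 to 3.65 ± 0.18 RPKM. Rybp fell by 0.22 (adjusted p = 0.0338), a call that ended under both other scalings. Fbrsl1, a partner of PCGF3 and PCGF5 complexes, fell from 6.65 ± 1.05 to 4.31 ± 0.43 RPKM.

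**Figure D4:**
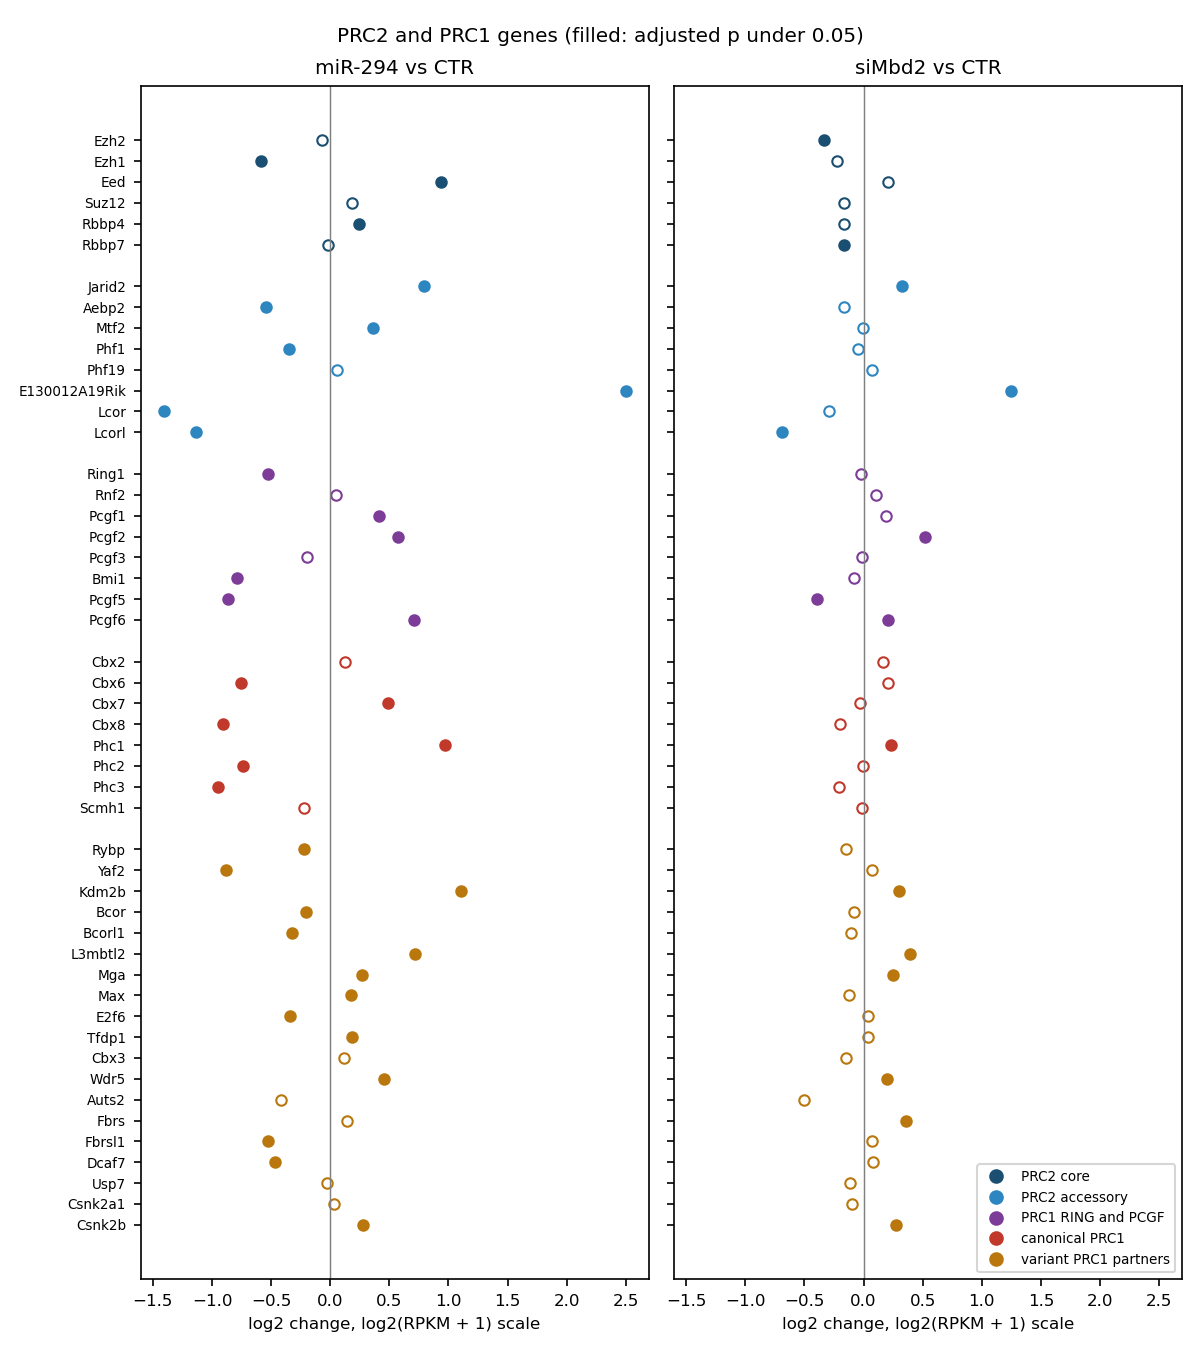
Change of the 49 tested PRC2 and PRC1 genes with miR-294 (left) and siMbd2 (right) on the log2(RPKM + 1) scale, coloured by list and filled where the adjusted p was under 0.05. Both panels share the CTR libraries, E130012A19Rik is the farthest point to the right in each (2.50 and 1.24), and 36 points are filled on the left against 15 on the right.

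Seed matches were present in 12 of the 49 genes. Of the 19 that fell with miR-294, 9 held a match (47.4%): Ezh1, Aebp2, Lcorl, Bmi1, Pcgf5, Cbx6, Phc3, Yaf2 and Dcaf7. Of the 17 that rose, 1 did (Mga, 5.88%), and of the 13 that did not pass, 2 did. Over all genes with a matched 3' UTR, a match was present in 28.8% of 4012 that fell and in 12.1% of 2993 that rose. These shares do not allow for length, and the 3' UTRs of the 9 genes run from 1110 bases (Yaf2) to 7965 (Phc3). The remaining 10 that fell, Ring1 among them, held none of the letters sought.

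The promoters of the core genes were searched for E2F letters, because E2F factors are described regulators of PRC2 genes, and for the MYC E-box CACGTG. The E2F letters were TTTCCCGC, TTTCGCGC, TTTGGCGC and TTTGCCGC, on both strands, in RefSeq windows (GRCm38.p6) from 250 bases before to 50 after each start. Of 12 windows of the 10 subunit genes, 2 held E2F letters, those of Ezh2 and Suz12, and 0 held CACGTG. Over 32851 windows of all genes, 2.26% held E2F letters and 7.15% held CACGTG. The windows are chr6:47594981-47595280 (minus strand) and chr11:79992856-79993155 (plus strand), shown 5' to 3' along the gene with the match in capitals.
Ezh2 promoter: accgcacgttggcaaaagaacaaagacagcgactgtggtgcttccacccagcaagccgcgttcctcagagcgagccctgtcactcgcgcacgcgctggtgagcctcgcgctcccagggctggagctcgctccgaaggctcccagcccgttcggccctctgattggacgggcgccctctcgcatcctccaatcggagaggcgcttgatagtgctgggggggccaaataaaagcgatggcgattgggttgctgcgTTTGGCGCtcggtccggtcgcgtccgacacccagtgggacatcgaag
Suz12 promoter: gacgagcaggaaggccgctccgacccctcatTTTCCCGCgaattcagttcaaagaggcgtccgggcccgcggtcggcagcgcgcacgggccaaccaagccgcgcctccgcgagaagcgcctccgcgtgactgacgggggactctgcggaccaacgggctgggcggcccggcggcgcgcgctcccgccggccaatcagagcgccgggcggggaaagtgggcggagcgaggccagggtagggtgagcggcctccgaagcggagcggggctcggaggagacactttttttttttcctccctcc
The match of Ezh2 lies just after the start and that of Suz12 upstream of it. Neither Ezh2 (log2 change -0.07) nor Suz12 (0.19) was called in miR-294 vs CTR, and both differed between the treatments. In siMbd2 vs CTR Ezh2 was called lower and Suz12 was not called. Whether the matches bear on these levels was not tested. A match in a window says nothing of the binding of a factor.

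Enzymes that counter Polycomb moved in both directions. The list holds 14 genes: lysine 27 demethylases, subunits of MLL/COMPASS, the complexes that methylate lysine 4, and Ash1l, a Trithorax-group methyltransferase that belongs to neither. With miR-294 4 of them rose and 5 fell, Ash1l included, beside 27.7% and 36.8% of all genes. Setd1b rose from 4.795 ± 0.11 to 9.95 ± 0.85 RPKM, while Ash1l (10.6 ± 0.98 to 4.41 ± 0.16) and Kmt2a (11.5 ± 0.17 to 7.74 ± 0.18) fell. With siMbd2, Ash2l, a core subunit of COMPASS, fell from 122 ± 0.78 to 87.8 ± 2.68 RPKM (log2 change -0.47, adjusted p = 7.28e-04). It read 121 ± 1.79 with miR-294, but was called lower there with quantile normalization (-0.23, adjusted p = 0.00622). The demethylase gene Kdm6b rose with siMbd2 (0.38, adjusted p = 0.0120). Of 9 tested genes of PR-DUB, the complex that removes the PRC1 mark, 2 rose with miR-294 (Bap1 and Asxl1) and 2 fell (Ogt and Foxk2, the latter not called with quantile normalization), against 64.5% called over all genes.

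Described Polycomb targets were counted as well. Of 52 listed genes, mostly but not all developmental regulators, 37 had a value and 23 were tested, 14 being under the minimum mean. With miR-294, 6 of the 23 rose and 15 fell, beside 27.7% and 36.8% of all genes. Their median was -0.36, against -0.08 for all genes tested, and with quantile normalization 6 rose and 11 fell. Olig2 fell from 12.7 ± 1.34 to 3.41 ± 0.0071 RPKM and Pax6 from 9.75 ± 0.18 to 4.20 ± 0.54, and both hold the letters AGCACTT in the 3' UTR. Foxd3, also a factor of undifferentiated ESCs, rose from 8.80 ± 0.33 to 18.8 ± 0.80 RPKM, and Wt1 from 2.89 ± 0.0071 to 6.80 ± 0.64. Of the regulators with a value, Pax6 is also on the neural list, Gata4, Gata6, Sox17 and Foxa2 on the primitive endoderm list, and Cdx2, Hand1 and Gata3 on the trophoblast list, whose sums are given above. With siMbd2, 3 of the 23 rose and 8 fell, beside 19.5% and 14.9% of all genes. Of 11 tested germline genes described as PCGF6 complex targets, 8 rose and 1 fell with miR-294, beside 27.7% and 36.8% of all genes. The subunit genes of that complex named above moved both ways. Pcgf6, L3mbtl2, Mga and Max rose, E2f6 fell, and so did Yaf2 and Rybp of variant PRC1. Zcwpw1 rose from 12.6 ± 0.092 to 20.8 ± 0.54 RPKM and Mael from 5.17 ± 0.69 to 8.57 ± 0.028, while Sycp3 was near the threshold (7.29 to 9.32 RPKM, adjusted p = 0.0476). With siMbd2, beside 19.5% and 14.9% of all genes, 1 of the 11 rose and 3 fell, Zcwpw1 to 7.49 ± 0.52 RPKM and Stk31 from 3.20 ± 0.59 to 1.99 ± 0.028.

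The genes whose levels over the 6 libraries ran closest to the subunits with the largest changes were sought among 11414 others, by the root mean square difference of centred log2(RPKM + 1) profiles. For Eed they were Tchh (0.032), Wdr43 (0.044) and Sub1 (0.050). Tchh read 0.55 and 0.74 RPKM in CTR and 2.07 and 1.97 in miR-294. That is near the minimum, where the added 1 understates changes, and its relative rise in RPKM was larger than that of Eed. For Jarid2 they were Cdv3 (0.031), 2810004N23Rik (0.032) and Tsr2 (0.033). The nearest of the other 9 subunits was Jarid2 for Eed (0.117) and Pcgf6 for Jarid2 (0.065).

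On GRCm38 (GENCODE vM21) the annotated spans of Mtf2, Rnf2 and Cbx7 overlap protein-coding genes on the opposite strand (Tmed5, Trmt1l and Apobec3), and the labels do not say whether reads were counted by strand. Ezh1 lies at chr11:101191115-101226463, Eed at chr7:89954654-89980983, Jarid2 at chr13:44729474-44921643, Ring1 at chr17:34020792-34024680, Pcgf6 at chr19:47033617-47050906 and Ezh2 at chr6:47530139-47595341.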

How the data were processed

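Messenger RNA was measured by paired-end Illumina sequencing, per the labels, in 6 libraries, 2 per group. The deposited table holds RPKM to 2 decimals, per the file headers, and each sample is the average of a pair of lanes, per the labels. Per the submitters' processing notes CASAVA 1.7, STAR 2.3.0, Cufflinks and mm10 were used, with no roles stated. The table also holds the authors' fold, a ratio of each treatment to mock, per the file headers; it was not used. The values carry no depth, so no interval for counting error is given. No 2 libraries were identical.

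RPKM values were analysed as log2(RPKM + 1), which understates changes of low genes, for genes whose mean reached 1 RPKM. One model with 3 groups was fitted over them with limma 3.58.1 under R 4.3.3, using an intensity trend (3 residual and 5.38 prior degrees of freedom), two-sided, and p-values were Benjamini-Hochberg adjusted within a comparison. "Rose" and "fell" refer to calls at an adjusted p under 0.05, and values after ± are SD over 2 libraries. The script was tested on simulated data. Sequences were searched with Python 3.11.15 and pandas 2.3.3, and plots used matplotlib 3.10.9. The other genes named are, per list, up to 4 called genes with the largest changes and at least 5 RPKM in the higher group. Added after their values were seen were Mga, Max, E2f6, Rybp, Rbbp7, the cell type markers, Kdm6b, Aebp2, Cbx8 and those in counts of seed matches. The subunits and lists were chosen with earlier results of these data known, and 1 gene of the lists is not reported here. The alternatives were pseudocount, filter, scaling, block, trend, samples in the fit and the omission of each library.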

Additional observations from a re-analysis of the deposited data

How the results depend on the processing

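Counts of subunits called in miR-294 vs CTR were within 1.5 times of the reported ones under every alternative run. In siMbd2 vs CTR they were not. There, 1 subunit was higher with median-of-ratios scaling, with quantile normalization, without the intensity trend and with only the 4 libraries compared, and 2 were lower with a minimum mean of 5 RPKM, median-of-ratios scaling, quantile normalization and the replicate block. Leaving out single libraries gave 0 to 3 higher and 0 to 2 lower subunits in siMbd2 vs CTR. It gave 1405 to 5387 called genes there, against 3933, with 1860 and 1405 without siMbd2 replicate 1 and 2. In miR-294 vs siMbd2, 1 subunit was lower with quantile normalization. No subunit reversed its direction across a call. Of the single-subunit values under alternatives, 135 of 140 kept their side of the threshold in miR-294 vs CTR, 122 in siMbd2 vs CTR and 138 between the treatments. The cause of the changes was not tested. With 1 library left in a group, that library is assumed to vary like the others.

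Replicate numbers do not pair these libraries by any label. The correlation of replicate deviations was 0.118 for CTR with miR-294, 0.123 for CTR with siMbd2 and 0.020 for miR-294 with siMbd2. The fit with the replicate number as a block called Suz12 higher in miR-294 vs CTR (0.19, adjusted p = 0.0352) and Ezh1 lower in siMbd2 vs CTR (-0.23, adjusted p = 0.0393), so that 2 subunits were lower there. Counts of the gene lists under the same alternatives were added after seeing the data.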
